A study of Mus musculus with 66 samples.

Results

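Brain hemisections of mice homozygous for the spontaneous allele h3 of *Rorb* were compared with brain hemisections of C57BL/6J mice, and all genes of the deposited tables were described. The comparison takes the 4 libraries labelled with genotype H3 and the 3 labelled WT-B6, 7 of the 66 libraries of the series. The series profiled the central nervous system of mice carrying 5 spontaneous *Rorb* alleles, which share a high-stepping gait, to look for changes in gene expression. Each library was made from polyadenylated RNA of 1 side of a sagittally cut, snap-frozen brain. The *Rorb h3/h3* mice are of the strain background B6(Cg)-Tyr c-2J/J, an albino C57BL/6J line, while their controls were C57BL/6J, so the albino background is carried by the mutants alone. They were males of 9.6 weeks (replicate 1) and 8.3 weeks (replicate 2), a female of 8.0 weeks (replicate 3) and a male of 8.0 weeks (replicate 4). The controls, all 8.0 weeks old, were 2 females (replicates 1 and 2) and 1 male (replicate 3). The DNA lesion of h3 was not identified by the study, and its complementation crosses gave a mixed result, with complementation of h1 and h2 and a weak failure to complement h4. Brains of *Rorb h2/h2* mice, described further on, are compared with these, and 1 alternative fit of 18 libraries adds 2 more alleles. These are *Rorb h1/h1* (2 females and 1 male of 8.0 weeks, on C57BL/6J) and *Rorb h4/h4* (2 females and 2 males of 8.4 or 8.6 weeks, on a B6.129S7 line with an Il1r1 allele).

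RORβ, the product of *Rorb*, is an orphan nuclear receptor of the brain, spinal cord and retina that binds DNA at short response elements and marks neurons of cortical layer 4. The unfolded protein response is the program by which cells adjust the folding capacity of the endoplasmic reticulum. Its sensors IRE1, ATF6 and PERK act through the factors XBP1, cleaved ATF6 and ATF4, and the first 2 of these factors raise transcription of chaperones such as BiP, the product of *Hspa5*.

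Total expected counts ran from 37618140 to 54446881 per library (median 43146915), and 0 of 21 pairs of the 7 libraries were identical. Between 3.25% and 9.24% of a library's counts fell on identifiers that could not be given a symbol, and the groups overlapped in this respect. The animal identifiers of the *Rorb h3/h3* mice and of the controls come from different series, so any batch that follows them and the genotype cannot be told apart. Neuronal, astrocyte and oligodendrocyte markers were present in every library. Summed over 7 excitatory neuron markers, the level was 2276 to 2634 CPM (counts scaled to a common library size, per 1e6, with TMM) in C57BL/6J and 2317 to 3004 CPM in *Rorb h3/h3* brain. In bulk tissue, fewer cells of a type and less RNA per cell cannot be told apart.

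Of 17688 genes tested, edgeR's quasi-likelihood test called 29 at a Benjamini-Hochberg adjusted p under 0.05, which is 0.164% of the genes tested. Higher in *Rorb h3/h3* brain were 9 genes (0.0509%), namely *Ide*, *Ndn*, *Amd-ps3*, *C4b*, *Pla2g4e*, *Rbm3*, *Fgfbp3*, *Btaf1* and *Ddn*. The 20 genes that were lower (0.113%) were *Sgsm1*, *Xbp1*, *Dio2*, *Hba-a1*, *Daam2*, *Pdia6*, *Sdf2l1*, *Cdkn1a*, *Hspa5*, *Dnajb11*, *Pdia4*, *Plin4*, *Creld2*, *Adgrl4*, *Pdia3*, *Fmnl1*, *Car2*, *Hsp90b1*, *Hyou1* and *Calr*. Of the lower genes, 10 of 20 encode chaperones or foldases of the endoplasmic reticulum. The changes were mostly small, with 2 of the 29 beyond 2-fold, *Amd-ps3* upward and *Plin4* downward. The median log2 fold change of all genes tested was 0.0047. For each of the 29 genes the values of the 4 mutant and the 3 control libraries did not overlap, while over all genes tested the mutant libraries were all below the controls for 5.31% and all above for 5.25%. At an unadjusted p under 0.05 there were 1833 genes, 5.12% of all as lower and 5.24% as higher, and 48.2% of all genes had a negative and 51.8% a positive log2 fold change. Below, a gene is called by edgeR unless DESeq2 is named, which called 195 genes in this comparison, the 29 among them.

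**Figure D1:**
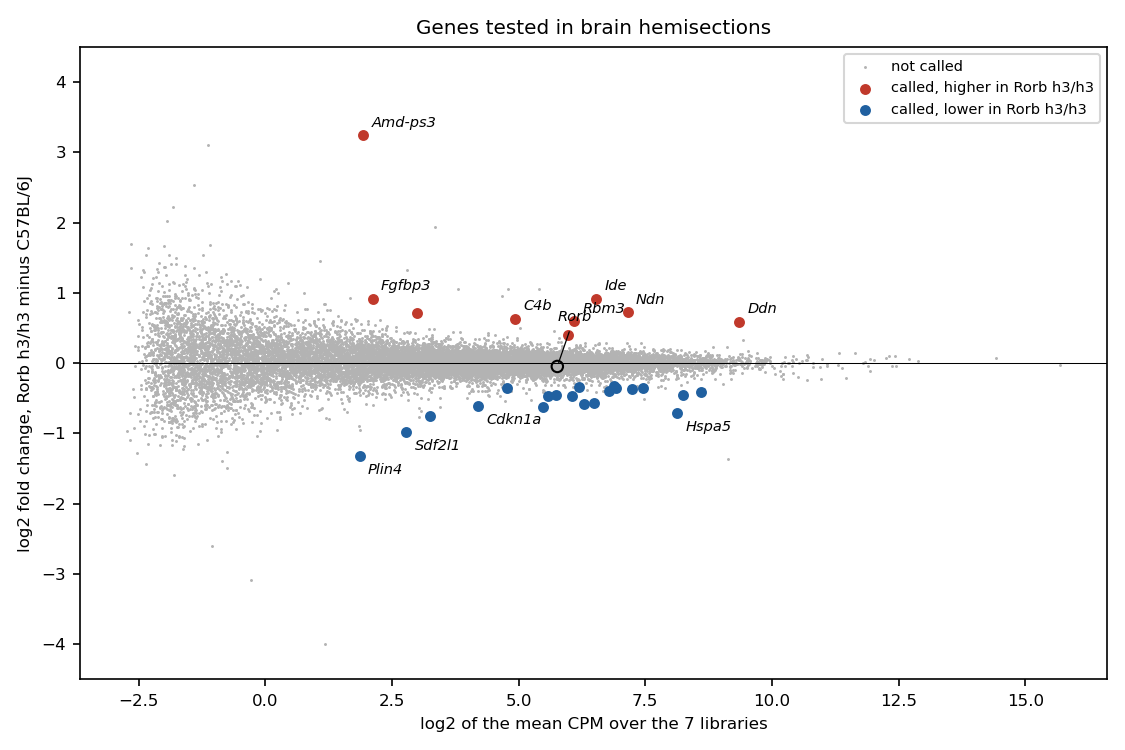
Each point is 1 of the 17688 genes tested in brain, with the log2 of its mean CPM over the 7 libraries on the x axis and its log2 fold change, *Rorb h3/h3* minus C57BL/6J, on the y axis. The 9 genes called higher are red and the 20 called lower are blue, and the open circle is *Rorb*, at -0.049.

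The number of calls depended on single libraries. It was 16, 19 and 17 without C57BL/6J replicate 1, 2 or 3, 7 without *Rorb h3/h3* replicate 2 or replicate 3, and 29 without *Rorb h3/h3* replicate 1 or replicate 4, of which 23 and 19 were among the 29 genes called with all libraries. *Ide*, *Ndn*, *Amd-ps3*, *C4b* and *Xbp1* were called in all 7 fits that left out 1 library. *Sgsm1* lost its call without *Rorb h3/h3* replicate 3, and *Dio2*, *Daam2*, *Pdia6* and *Hspa5* lost it without *Rorb h3/h3* replicate 2 or replicate 3. *Pdia3* and *Hyou1* were called in none of these fits, and the other 17 genes in 1 to 4 of them. No called gene changed direction in any of the 13 alternatives.

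**Figure D2:**
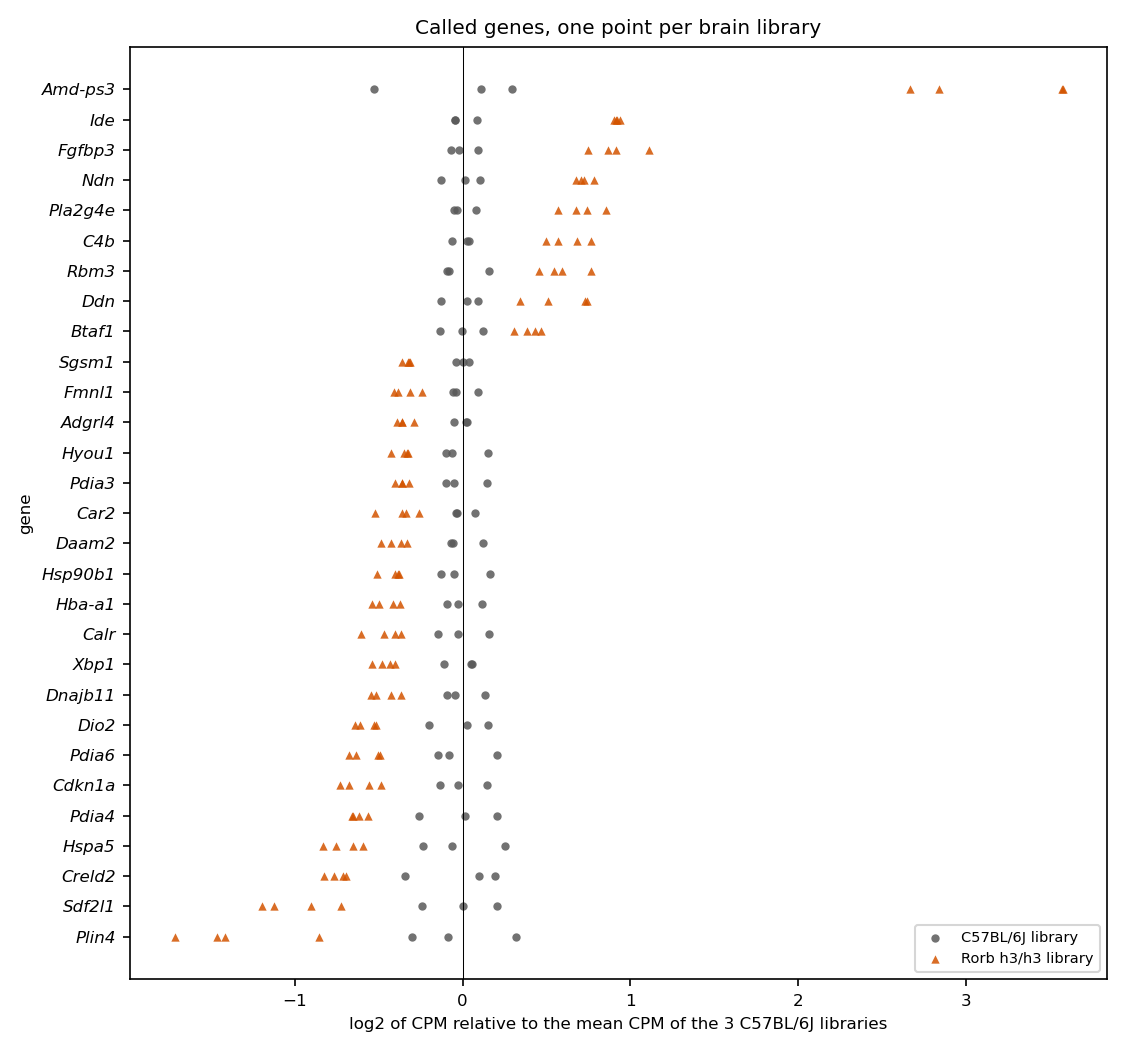
Rows are the 29 called genes and the x axis is the log2 of each library's CPM relative to the mean of the 3 C57BL/6J libraries. Grey circles are the 3 C57BL/6J libraries and orange triangles the 4 *Rorb h3/h3* libraries, which do not overlap in any row. The 4 mutant values of *Ide* nearly coincide, and those of *Amd-ps3* form a lower and a higher pair.

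*Rorb* itself (GRCm38 chr19:18930609-19111196) did not differ detectably. In C57BL/6J brains it was at 53.2, 51.5 and 61.5 CPM and in *Rorb h3/h3* brains at 55.5, 51.3, 52.2 and 55.4 CPM. The mutant values lay within the range of the control values except replicate 2, which was just below it. The difference of the means was -1.78 CPM (exact permutation test, two-sided, p = 0.657, where the smallest p that 4 against 3 allows is 0.0286), and edgeR gave a log2 fold change of -0.049 ± 0.064 (SE) with an adjusted p of 0.846. Without C57BL/6J replicate 3 the difference was 1.26 CPM. With the lesion unknown, the level of the gene cannot serve as a check of the labels. The RSEM gene length is the mean length of a gene's transcripts weighted by their estimated abundance. Different mixtures of transcripts can give the same mean, so a similar length does not show that the same transcripts of *Rorb* were used. The length for *Rorb* was 8876 ± 35.8 bases (SD, n = 3) in C57BL/6J and 8855 ± 146 bases (SD, n = 4) in *Rorb h3/h3* brain (exact permutation test, two-sided, p = 0.857). The difference was positive without *Rorb h3/h3* replicate 2 (23.3 bases) or replicate 4 (3.65 bases). Among the 10 neighbours of *Rorb* on chromosome 19 that were tested, 0 were called. Beside the 3′ end of *Rorb*, which lies on the minus strand, were *Trpm6*, a magnesium channel, with a log2 fold change of 0.25 ± 0.18 (SE) and an adjusted p of 0.684, and, further away, *Carnmt1*, a carnosine methyltransferase, with -0.063 ± 0.074 (SE) and 0.822. Across all genes, limma on the log2 RSEM gene length called 0 of 8307 genes, with 460 at an unadjusted p under 0.05 and a smallest adjusted p of 0.467. The 5 with the smallest p were *BC028528*, *Slc16a7*, *5430416N02Rik*, *Dhx30* and *Vangl2*.

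Among the gene lists examined, chaperones of the endoplasmic reticulum held the most called genes, although none of these calls remained without *Rorb h3/h3* replicate 2 or without replicate 3. Of a list of 33 endoplasmic reticulum chaperones and foldases, all were tested and 10 were called lower, against 0.113% of all genes tested, and 0 were called higher. With the called genes included, 18 were lower at an unadjusted p under 0.05, against 5.12% of all genes, 29 of the 33 had a negative log2 fold change, and in 17 the 4 mutant libraries were all below the 3 controls, against 5.31% of all genes. The median log2 fold change of the list was -0.15, against 0.0047 over all genes tested. The list was written with earlier results of these data known, so its count is a description and not independent evidence of its direction.

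*Hspa5* encodes BiP, the Hsp70 of the endoplasmic reticulum. It was at 346, 307 and 429.9 CPM in C57BL/6J and at 202, 214, 229.9 and 239 CPM in *Rorb h3/h3* brain, a log2 fold change of -0.71 ± 0.098 (SE) (adjusted p = 0.0166, edgeR). The lowest control was well above the highest mutant, and control replicate 3 was the highest library. *Sdf2l1*, a cofactor that works with BiP and its J-domain partner *Dnajb11*, fell the furthest of the list. Its levels were 9.58, 8.08 and 11.0 CPM in the controls and 4.38, 4.17, 5.11 and 5.79 CPM in the mutants, and the log2 fold change was -0.98 ± 0.13 (SE) (adjusted p = 0.0166). *Dnajb11* fell by less, with 54.8, 53.1 and 62.0 CPM against 42.1, 43.9, 38.8 and 39.7 CPM and a log2 fold change of -0.46 ± 0.065 (SE).

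The 3 called protein disulfide isomerases, which form and rearrange disulfide bonds, fell to different extents. For *Pdia4* the controls were at 56.3, 46.5 and 64.3 CPM and the mutants at 35.3, 35.4, 36.3 and 37.6 CPM, a log2 fold change of -0.62 ± 0.088 (SE). *Pdia6* went from 91.3, 87.2 and 111 to 60.3, 68.8, 68.0 and 62.1 CPM (-0.58 ± 0.079 (SE)). *Pdia3*, the partner of the lectin chaperones, changed least (-0.36 ± 0.057 (SE)), and its lowest control at 187 CPM was still above its highest mutant at 161 CPM. *Calr*, a calcium-binding lectin chaperone, was at 352, 325 and 401 CPM in C57BL/6J and 236, 279, 272 and 259 CPM in *Rorb h3/h3* brain (-0.46 ± 0.075 (SE)). *Hsp90b1*, the Hsp90 of the compartment, and *Hyou1*, a nucleotide exchange factor of BiP, fell by 0.42 and 0.36 on the log2 scale. *Creld2*, an inducible secreted protein of the endoplasmic reticulum, was at 13.3, 9.82 and 14.2 CPM against 7.69, 7.59, 7.32 and 7.02 CPM (-0.75 ± 0.12 (SE), adjusted p = 0.0365).

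*Manf*, a factor that binds BiP and is secreted under stress, lay just outside the threshold with a log2 fold change of -0.53 ± 0.091 (SE) and an adjusted p of 0.0612. The co-chaperone *Dnajc3* had -0.33 ± 0.070 (SE) and 0.135, and DESeq2 called both. Other members that were not called ran from values near those to values near 0. The oxidoreductase gene *Erp44* had -0.23 ± 0.050 (SE) and the lectin gene *Mlec* -0.22 ± 0.049 (SE), both also called by DESeq2 and not by edgeR, and the lectin chaperone *Canx* had -0.16 ± 0.054 (SE). The oxidase *Ero1a* had a log2 fold change of -0.046 ± 0.045 (SE), the selenoprotein gene *Selenof* 0.015 ± 0.042 (SE) and the Hsp70-like *Hspa13* -0.030 ± 0.054 (SE).

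Of the 10 called members, all 10 had C57BL/6J replicate 3, the only control male, as their highest library. The count of called members was 3 without that library, 2 without C57BL/6J replicate 1, and 6, 0, 0 and 5 without *Rorb h3/h3* replicate 1, 2, 3 or 4. With a term for sex it was 10, where *Calr* lost its call (adjusted p = 0.0596) and *Manf* gained one (adjusted p = 0.0435), and DESeq2 called 14 members lower, where it called 1.10% of all genes in either direction and 0.741% as lower.

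**Figure D3:**
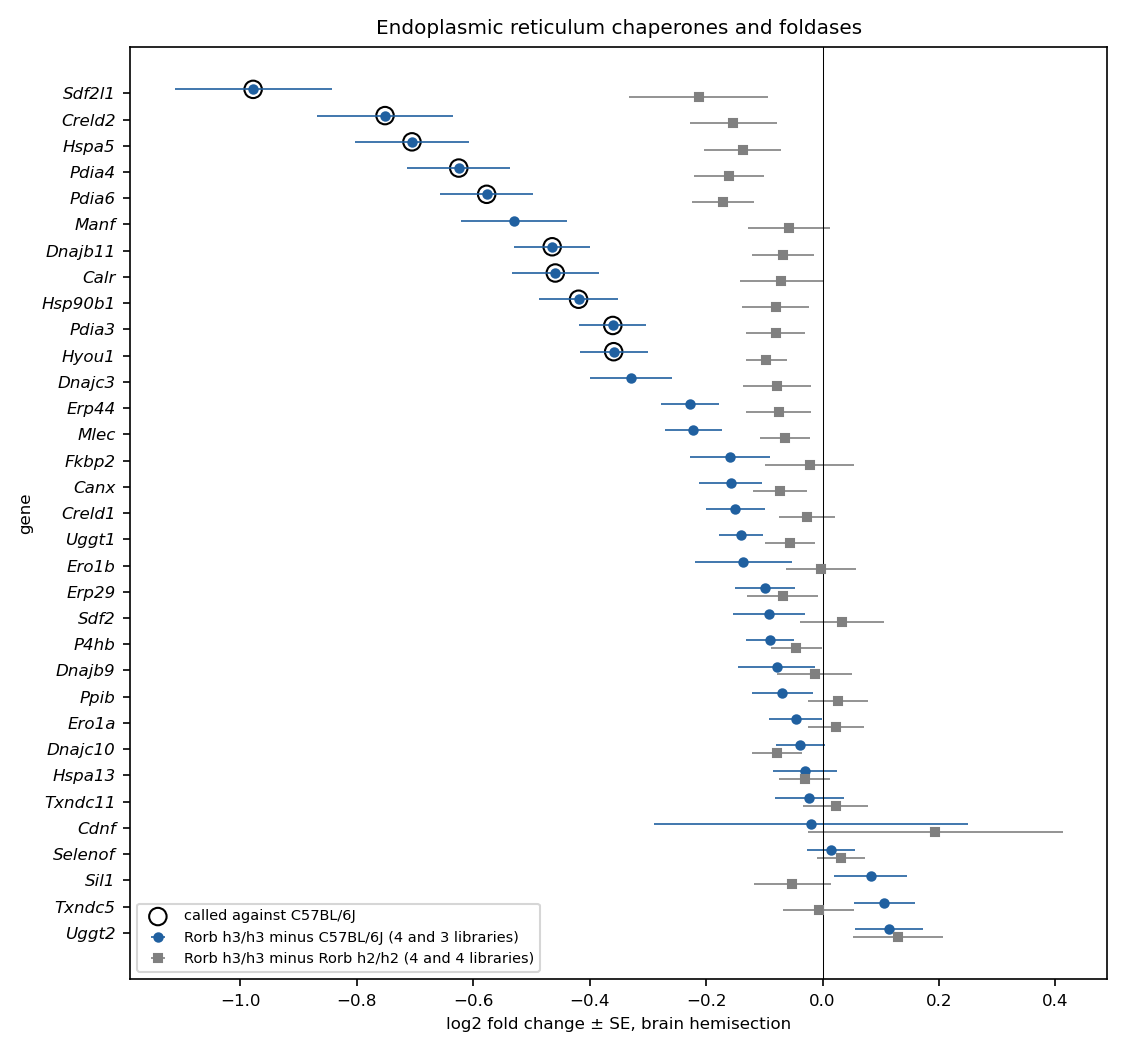
Rows are the 33 genes of the endoplasmic reticulum list and the x axis is the log2 fold change in brain, with bars of 1 SE. Blue circles are *Rorb h3/h3* minus C57BL/6J, ringed in black for the 10 called genes, and run from -0.98 for *Sdf2l1* to 0.11 for *Uggt2*. Grey squares are *Rorb h3/h3* minus *Rorb h2/h2*, for which none of the 33 was called.

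The promoters of 5 of these genes are shown because they carry a sequence found at many targets of ATF6, the endoplasmic reticulum stress element, which is CCAAT and CCACG with any 9 bases between them and was searched on both strands. Windows of 250 bases before to 50 bases after the transcription start were taken from a set of RefSeq (GRCm38.p6) promoters. This set has an entry for 9 of the 10 called members, all but *Hyou1*. The element was found in 5 of these 9, *Hspa5*, *Hsp90b1*, *Pdia6*, *Creld2* and *Calr*. It was found in 3 of the 19 members that were not called and have an entry, in 0 of the 14 other called genes with an entry, and in any window of 37 of all 27025 genes of the table, 0.137%. CCAAT alone was in all 9 and in 41.1% of all genes, and CCACG alone was in 8 of 9 and in 35.5% of all genes. TGACGTG, a site of XBP1 and ATF6, was in 1 of the 9, *Hspa5*, and in 2.22% of all genes. TAGGTCA, the response element of ROR receptors, was in the window of 1 of the 23 called genes with an entry, *Sgsm1*, and in 2.97% of all genes. The glucocorticoid response element, an inverted repeat with any 3 bases at its centre, was in 0 of the 23 and in 0.537% of all genes. A match describes the letters of the window and is no evidence of binding, and a missing match says only that these letters are not in it.

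In the following 5 windows the capitals mark the element, which lies on the strand of the gene in *Hspa5* and *Pdia6*, on the opposite strand in *Creld2* and *Calr*, and once on each in *Hsp90b1*. The positions are chr2:34771840-34772139, plus strand for *Hspa5*, chr12:17266339-17266638, plus strand for *Pdia6*, chr15:88819396-88819695, plus strand for *Creld2*, chr8:84846882-84847181, minus strand for *Calr* and chr10:86705395-86705694, minus strand for *Hsp90b1*.
Hspa5: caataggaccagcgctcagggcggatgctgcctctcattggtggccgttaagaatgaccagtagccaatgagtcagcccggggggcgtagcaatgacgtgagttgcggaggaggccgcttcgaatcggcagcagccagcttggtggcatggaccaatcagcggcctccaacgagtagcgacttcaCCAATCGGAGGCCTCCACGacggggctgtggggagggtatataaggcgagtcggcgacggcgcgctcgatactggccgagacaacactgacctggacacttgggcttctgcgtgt
Pdia6: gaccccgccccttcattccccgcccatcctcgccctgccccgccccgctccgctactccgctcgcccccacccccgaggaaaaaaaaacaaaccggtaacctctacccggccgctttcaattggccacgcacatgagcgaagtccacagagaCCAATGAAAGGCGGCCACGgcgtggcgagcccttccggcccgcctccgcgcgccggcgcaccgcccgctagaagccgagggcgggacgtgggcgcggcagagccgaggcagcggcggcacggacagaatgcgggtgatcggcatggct
Creld2: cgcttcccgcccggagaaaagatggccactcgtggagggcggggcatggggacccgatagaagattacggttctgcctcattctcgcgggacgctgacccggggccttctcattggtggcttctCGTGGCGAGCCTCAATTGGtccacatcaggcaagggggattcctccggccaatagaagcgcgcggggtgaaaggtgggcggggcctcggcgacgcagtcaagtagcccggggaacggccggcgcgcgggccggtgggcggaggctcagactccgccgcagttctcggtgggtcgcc
Calr: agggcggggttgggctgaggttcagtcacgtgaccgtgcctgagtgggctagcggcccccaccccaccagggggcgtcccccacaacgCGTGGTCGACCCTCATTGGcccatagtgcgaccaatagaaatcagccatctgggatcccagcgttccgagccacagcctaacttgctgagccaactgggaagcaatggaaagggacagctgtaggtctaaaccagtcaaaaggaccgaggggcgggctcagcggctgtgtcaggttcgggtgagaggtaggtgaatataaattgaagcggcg
Hsp90b1: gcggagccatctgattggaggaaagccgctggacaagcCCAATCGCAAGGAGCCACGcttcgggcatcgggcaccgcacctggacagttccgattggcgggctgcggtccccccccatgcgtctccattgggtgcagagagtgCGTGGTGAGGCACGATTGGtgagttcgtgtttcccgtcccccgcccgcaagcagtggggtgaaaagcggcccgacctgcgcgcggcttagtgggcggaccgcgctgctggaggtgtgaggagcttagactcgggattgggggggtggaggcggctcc

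Beyond the chaperones, the unfolded protein response was represented by *Xbp1*. This transcription factor gene, a target and a mediator of the response, was at 81.6, 72.8 and 81.8 CPM in C57BL/6J and at 56.4, 54.1, 59.6 and 58.3 CPM in *Rorb h3/h3* brain, a log2 fold change of -0.46 ± 0.054 (SE) (adjusted p = 0.00805, edgeR). The lowest control exceeded the highest mutant by 13.2 CPM. It was the 1 gene called by edgeR among 10 sensors and factors of the response, where 0.113% of all genes were called lower. DESeq2 called 2 of the 10 sensors and factors, both lower (0.741% of all genes). Their median log2 fold change was -0.13. The sensor gene *Atf6* had -0.13 ± 0.060 (SE) (adjusted p = 0.501). In the PERK and ATF4 branch, 0 of 27 genes tested were called by edgeR and 1 as lower by DESeq2, with a median of -0.045. At an unadjusted p under 0.05, 6 of the 27 were lower (5.12% of all genes) and 0 higher (5.24%). The factors *Atf4* and *Ddit3* of this branch had log2 fold changes of -0.17 ± 0.048 (SE) and -0.21 ± 0.099 (SE). Of 16 genes of endoplasmic reticulum-associated degradation 0 were called by either tool. At an unadjusted p under 0.05, 5 of the 16 were lower and 1 higher, with a median of -0.061.

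Heat-shock genes of the cytosol and mitochondria had mostly negative values and no call. Of the 25 tested, 0 were called, 24 had a negative log2 fold change (48.2% of all genes), 16 of them at an unadjusted p under 0.05 (5.12% of all genes), and the median log2 fold change was -0.16. *Cryab*, a small heat-shock protein, had -0.47 ± 0.092 (SE) (adjusted p = 0.101) and *Hspa8*, the constitutive Hsp70, -0.24 ± 0.057 (SE) (adjusted p = 0.184). DESeq2 called 6 of the 25, all lower, and 0.741% of all genes as lower.

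*Ide* was the gene with the smallest p. It encodes insulin-degrading enzyme, a zinc protease of insulin and amyloid-β, and lies on chromosome 19 at GRCm38 chr19:37268743-37334544, the chromosome of *Rorb*. C57BL/6J brains had 65.2, 59.6 and 59.5 CPM and *Rorb h3/h3* brains 116, 115, 116 and 117 CPM. The mutant level was 1.89 times that of the controls (log2 fold change 0.92 ± 0.044 (SE), adjusted p = 3.58e-06, edgeR), and its 4 values spanned 2.93 CPM. A pair of genes on the same arm was called in the same direction. *Fgfbp3*, which encodes a carrier of fibroblast growth factors (chr19:36917550-36919599), was at 3.08, 2.84 and 2.75 CPM in the controls and 6.24, 5.44, 5.26 and 4.85 CPM in the mutants (0.92 ± 0.12 (SE), adjusted p = 0.0166). *Btaf1*, which encodes an ATPase that removes TATA-binding protein from DNA (chr19:36926079-37014057), was at 53.3, 48.7 and 58.2 CPM and 73.8, 72.1, 66.1 and 69.6 CPM (0.40 ± 0.063 (SE), adjusted p = 0.0401). *Btaf1* lost its call with sex as a covariate (adjusted p = 0.0559) and in every fit that left out 1 library but the one without C57BL/6J replicate 3, and *Fgfbp3* without C57BL/6J replicate 2 or 3 or *Rorb h3/h3* replicate 2 or 3. *Btaf1* and *Fgfbp3* stand next to each other, but the genes with a mean of at least 1 CPM between *Btaf1* and *Ide* did not follow them. *Cpeb3*, which encodes a translation regulator and lies next to *Btaf1*, had a log2 fold change of 0.035 ± 0.038 (SE), and *Marchf5*, a mitochondrial ubiquitin ligase gene, had -0.016 ± 0.059 (SE). *A330032B11Rik*, in the same interval but at 0.227 to 0.472 CPM, had 0.48 ± 0.38 (SE) and was not called (adjusted p = 0.715, edgeR). On the outer sides, *Tnks2* had -0.030 ± 0.053 (SE) and *Kif11* -0.15 ± 0.16 (SE). Among the 18 genes from 1 Mb before *Btaf1* to 1 Mb after *Ide* with a mean of at least 1 CPM, these 3 were called. *Rpl10-ps6*, a pseudogene inside the span of *Ide*, was at 0.135 to 0.302 CPM in the controls and at 0.415 to 0.548 CPM in the mutants and was not called.

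**Figure D4:**
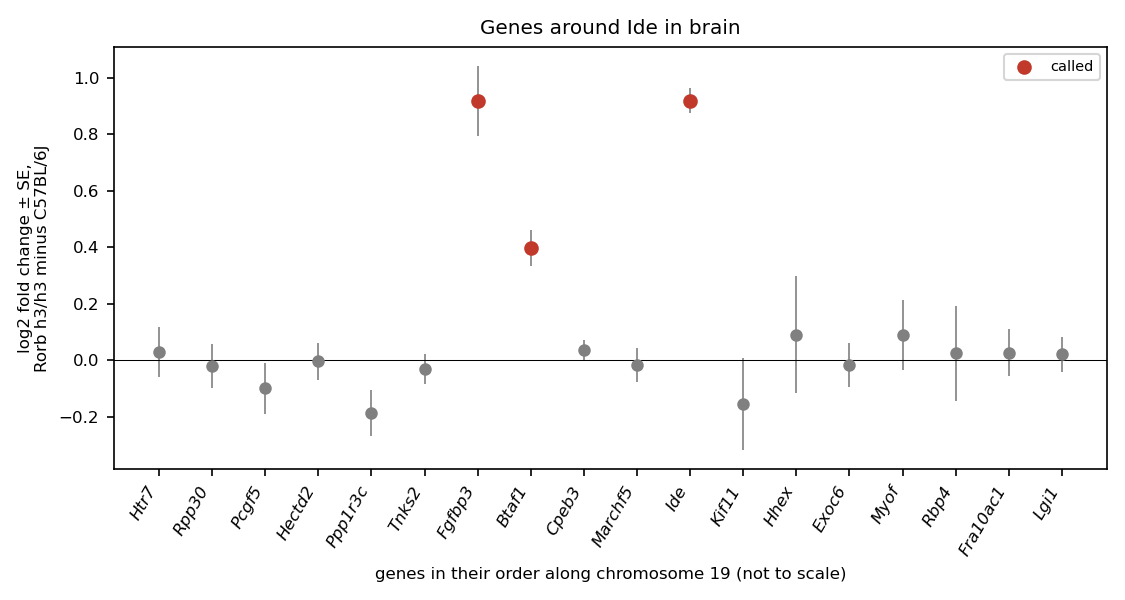
The y axis is the log2 fold change in brain with a bar of 1 SE, for 18 genes set in their order along chromosome 19. Red points are the called genes *Fgfbp3*, *Btaf1* and *Ide*, and the genes between and beside them lie between -0.19 and 0.091.

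*Ndn* encodes necdin, a protein of postmitotic neurons expressed from the paternal allele of the imprinted Prader-Willi cluster on chromosome 7 (chr7:62348277-62349928). It was at 112, 105 and 94.9 CPM in C57BL/6J and at 169, 171, 165 and 178 CPM in *Rorb h3/h3* brain, 1.65 times the control level (log2 fold change 0.72 ± 0.056 (SE), adjusted p = 3.54e-04, edgeR). The lowest mutant was 53.7 CPM above the highest control. Of the 12 genes of the cluster that were tested, edgeR called *Ndn*, and DESeq2 called *Ndn* and, as lower, *Snurf*. Over all genes, edgeR called 0.0509% higher, and DESeq2 called 0.362% higher and 0.741% lower. *Magel2*, a neighbouring paternally expressed gene, had -0.097 ± 0.13 (SE) and *Snurf*, at the imprinting centre, -0.35 ± 0.086 (SE) (adjusted p = 0.199). Of 33 other imprinted genes 0 were called by edgeR and 1 as lower by DESeq2, and their median was -0.024. At an unadjusted p under 0.05, 1 of them was higher (5.24% of all genes) and 2 were lower (5.12%).

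*Amd-ps3* had the largest fold change of the called genes. It is a pseudogene related to *Amd1*, the gene of S-adenosylmethionine decarboxylase in polyamine synthesis. The controls were at 0.714, 0.813 and 0.458 CPM and the mutants at 4.20, 4.74, 7.88 and 7.85 CPM (log2 fold change 3.24 ± 0.30 (SE), adjusted p = 0.00143, edgeR). In reads, the estimated counts were 25 to 36 in the controls and 185 to 418 in the mutants. *Rorb h3/h3* replicates 3 and 4, the mutants of 8.0 weeks, were higher than replicates 1 and 2. *Amd1* had -0.20 ± 0.039 (SE) and an adjusted p of 0.107, and was not called by edgeR. Since RSEM divides reads that fit both genes, the level of *Amd-ps3* is uncertain. By that division it made up 0.394% ± 0.115 (SD, n = 3) of the summed CPM of the pair in C57BL/6J and 4.03% ± 1.25 (SD, n = 4) in *Rorb h3/h3* brain. Of the other 12 polyamine genes tested, edgeR called 0 and DESeq2 called *Amd1*.

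*C4b* encodes complement component C4, which is made by glia in the brain. C57BL/6J brains were at 23.8, 23.7 and 22.3 CPM and *Rorb h3/h3* brains at 32.8, 34.4, 39.5 and 37.3 CPM (log2 fold change 0.63 ± 0.072 (SE), adjusted p = 0.00796, edgeR). The controls were close together and all mutants were above them. It was the 1 called gene of 16 complement and interferon genes by either tool, where 0.0509% of all genes were called higher. Of the 16, 15 had a positive log2 fold change (51.8% of all genes), with a median of 0.21. *C1qc*, a subunit of the initiating complex C1q, had 0.24 ± 0.11 (SE) (adjusted p = 0.469). Beside it, the 10 microglia markers had a median of 0.18 with 10 positive (51.8% of all genes). At an unadjusted p under 0.05, 3 were higher (5.24% of all genes), and 0 were called by either tool. Their summed level was 252 to 320 CPM in the controls and 294 to 356 CPM in the mutants. The part of these markers in the complement values was not tested.

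*Dio2* encodes the type 2 deiodinase, by which astrocytes turn thyroxine into active thyroid hormone. It was at 112, 95.7 and 122 CPM in C57BL/6J and 71.9, 76.4, 70.6 and 77.0 CPM in *Rorb h3/h3* brain (log2 fold change -0.57 ± 0.071 (SE), adjusted p = 0.0131, edgeR). Of the other 11 genes of thyroid hormone transport and response tested, 0 were called by either tool. Among 22 genes induced by glucocorticoids, edgeR called 2, both lower, where it called 0.113% of all genes lower, and DESeq2 called 4, all lower (0.741% of all genes). *Cdkn1a*, the cell cycle inhibitor p21, was at 25.4, 22.5 and 20.8 CPM in the controls and 14.3, 13.8, 15.6 and 16.4 CPM in the mutants (-0.61 ± 0.084 (SE)), and *Plin4*, a lipid droplet coat protein gene, at 6.92, 4.49 and 5.22 CPM and 3.06, 1.69, 2.07 and 2.01 CPM (-1.32 ± 0.20 (SE), adjusted p = 0.0365). *Cdkn1a* lost its call without C57BL/6J replicate 1 or 2 or *Rorb h3/h3* replicate 2 or 3, and *Plin4* kept it only without *Rorb h3/h3* replicate 1 and lost it with sex as a covariate (adjusted p = 0.0993). *Mfsd2a*, the lipid transporter of the blood-brain barrier, had -0.49 ± 0.092 (SE) (adjusted p = 0.0852), and the list's median was -0.15. *Nr3c2*, the mineralocorticoid receptor gene, had 0.36 ± 0.067 (SE) and an adjusted p of 0.0829.

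A further 3 called genes are expressed in glia or vessels. *Daam2*, a formin of Wnt signalling, was at 139, 122 and 123 CPM in the controls and 91.5, 95.2, 99.0 and 102 CPM in the mutants (-0.40 ± 0.055 (SE)). *Car2*, the carbonic anhydrase of oligodendrocytes, fell by 0.37 on the log2 scale, from 169 to 184 CPM in the controls to 122 to 146 CPM in the mutants. The summed level of the 13 oligodendrocyte markers was 7422 to 8573 CPM in C57BL/6J and 5506 to 7843 CPM in *Rorb h3/h3* brain. Their median log2 fold change was -0.21, with 12 negative (48.2% of all genes). At an unadjusted p under 0.05, 6 of the 13 markers were lower (5.12% of all genes). Of the markers, edgeR called 0 and DESeq2 called 2 as lower (0.741% of all genes). *Anln* had the smallest p of these (-0.48 ± 0.085 (SE), adjusted p = 0.0704 with edgeR) and was called by DESeq2. The part of this shift in the value of *Car2* was not tested. With sex as a covariate *Daam2*, *Car2* and *Adgrl4* were not called (adjusted p = 0.0609, 0.159 and 0.0728). *Car2* kept its call only without *Rorb h3/h3* replicate 1 or 4, and *Adgrl4* only without *Rorb h3/h3* replicate 1. *Adgrl4*, an adhesion receptor of endothelial cells, was at 30.1 to 31.7 CPM in the controls and 23.8 to 25.5 CPM in the mutants (-0.35 ± 0.055 (SE)), while of 14 endothelial markers edgeR called 0 and DESeq2 1 as higher and 3 as lower (0.362% and 0.741% of all genes), with a median of -0.074.

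*Rbm3* encodes an RNA-binding protein that is induced by mild cold. It was at 49.8, 59.2 and 50.3 CPM in C57BL/6J and 90.3, 72.9, 77.3 and 80.0 CPM in *Rorb h3/h3* brain (log2 fold change 0.59 ± 0.079 (SE), adjusted p = 0.0166, edgeR). Its relative *Cirbp* was at 26.5 ± 2.72 CPM (SD, n = 3) CPM (SD, n = 3) and 37.3 ± 4.42 CPM (SD, n = 4) CPM (SD, n = 4), also without overlap, but was not called (0.50 ± 0.097 (SE), adjusted p = 0.101). *Rbm3* was not called without C57BL/6J replicate 1, C57BL/6J replicate 3 or *Rorb h3/h3* replicate 3.

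Another 4 genes called in brain were not called in spinal cord. *Sgsm1*, which encodes a modulator of small GTPases of neurons, was at 133, 129 and 136 CPM in C57BL/6J and 107, 106, 103 and 106 CPM in *Rorb h3/h3* brain (-0.33 ± 0.037 (SE), adjusted p = 0.00796, edgeR), with 0.013 ± 0.043 (SE) in spinal cord. *Fmnl1*, a formin gene, went from 80.2, 81.0 and 88.7 to 70.5, 67.1, 63.7 and 62.7 CPM (-0.34 ± 0.054 (SE)), with 0.023 ± 0.057 in spinal cord. *Ddn*, which encodes dendrin of forebrain dendrites and synapses, was at 464, 517 and 541 CPM in the controls and 839.7, 846, 644 and 721 CPM in the mutants (0.59 ± 0.094 (SE), adjusted p = 0.0405), with -0.079 ± 0.22 in spinal cord. Its level in spinal cord was only 2.11 to 3.47 CPM in the controls and 1.70 to 3.16 CPM in the mutants, so the value there says little. *Pla2g4e*, a phospholipase of the cytosol, was at 5.74, 6.19 and 5.66 CPM and 10.6, 9.38, 8.70 and 9.78 CPM (0.71 ± 0.093 (SE)), with 0.21 ± 0.10 in spinal cord. *Pla2g4e* lost its call without C57BL/6J replicate 1 or 3 or *Rorb h3/h3* replicate 2. *Ddn* kept its call only without *Rorb h3/h3* replicate 3, and *Fmnl1* only without *Rorb h3/h3* replicate 1, while 1 fit of 5 brain groups ended its call (adjusted p = 0.0507). The difference between the tissues passed the threshold for none of them (adjusted p = 0.264, 0.382, 0.955 and 0.821). Markers of striatum and cerebellum overlapped between the groups in their summed levels. The 8 striatal markers all had positive log2 fold changes (51.8% of all genes), with a median of 0.20. They summed to 573 to 694 CPM in the controls and 656 to 829 CPM in the mutants. The 8 cerebellar markers all had negative log2 fold changes (48.2% of all genes), with a median of -0.23. They summed to 1025 to 1401 CPM and 890 to 1216 CPM. edgeR called none of the 16. At an unadjusted p under 0.05, 3 striatal markers were higher (5.24% of all genes) and 1 cerebellar marker was lower (5.12%). DESeq2 called 1 striatal marker higher (0.362% of all genes) and 1 cerebellar marker lower (0.741%). The part of these markers in the 4 genes was not tested.

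*Hba-a1* and *Hba-a2* are near-identical copies of the α-globin gene, on which reads are divided by RSEM. *Hba-a1* was at 62.1, 68.5 and 59.3 CPM in C57BL/6J and 49.0, 43.5, 47.4 and 44.8 CPM in *Rorb h3/h3* brain (-0.45 ± 0.061 (SE), adjusted p = 0.0166, edgeR), and *Hba-a2* at 42.1, 46.5 and 41.0 CPM and 69.3, 52.9, 59.9 and 53.7 CPM (0.45 ± 0.089 (SE), adjusted p = 0.101). The call of *Hba-a1* is uncertain for that reason, and it was lost without C57BL/6J replicate 2 or *Rorb h3/h3* replicate 2 or 3 and in 1 fit of 5 brain groups (adjusted p = 0.421). The sum of the copies was 107 ± 7.63 CPM (SD, n = 3) in C57BL/6J and 105 ± 9.96 CPM (SD, n = 4) in *Rorb h3/h3* brain, which differed by less than the spread within either group. The share of *Hba-a1* in that sum was 59.6%, 59.6% and 59.1% in the controls and 41.4%, 45.1%, 44.2% and 45.5% in the mutants. This measure was chosen after the values were seen, and the 2-sided p by exact permutation was 0.0286, which no value can go below with 4 against 3. It was 56.5% to 59.8% in C57BL/6J and 41.5% to 43.8% in *Rorb h3/h3* spinal cord, and 41.3% to 46.6% in 4 *Rorb h2/h2* brains. The mutants of either allele and the controls did not overlap. The β-globin genes *Hbb-bs* and *Hbb-bt* had log2 fold changes of -0.34 ± 0.079 (SE) and -0.40 ± 0.078 (SE) and were called by DESeq2 and not by edgeR. DESeq2 called *Hba-a2* too, as higher (adjusted p = 4.95e-04). In spinal cord *Hba-a1* had -0.72 ± 0.16 (adjusted p = 0.0525).

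*Rorb h2/h2* mice arose on the same albino strain, and 4 of their brains were compared with the 4 *Rorb h3/h3* brains to see which differences from C57BL/6J also separate these alleles. This contrast uses no C57BL/6J library but shares the *Rorb h3/h3* libraries. edgeR called 11 of 17461 genes (0.0630%), 5 higher and 6 lower in *Rorb h3/h3* brain, and 948 had an unadjusted p under 0.05. The 5 with the smallest p were *Ide*, *Rorb*, *Amd-ps3*, *Aldh1a2* and *Thbd*. The others were *Myoc*, *Fgfbp3*, *Slc13a3*, *Itih2*, *Olfml2a* and *C4b*. The *Rorb h2/h2* mice were 3 females and 1 male of 7.9 or 9.4 weeks, and with sex as a covariate 4 genes were called. The count was 7 without *Rorb h2/h2* replicate 1, 6 without its replicate 3, 5 without *Rorb h3/h3* replicate 2 and 7 without its replicate 3 or replicate 4.

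Of the 29 genes called against C57BL/6J, 4 were called against *Rorb h2/h2*. *Ide* was at 58.4, 58.7, 58.0 and 56.6 CPM in *Rorb h2/h2* brain, and the log2 difference was 0.99 ± 0.034 (SE, adjusted p = 7.01e-09). *Fgfbp3* differed by 1.05 ± 0.16 (adjusted p = 0.0347), *Amd-ps3* by 3.10 ± 0.24 (adjusted p = 5.58e-05) and *C4b* by 0.51 ± 0.080 (adjusted p = 0.0406). *Btaf1*, at 54.7, 57.9, 44.5 and 42.3 CPM in *Rorb h2/h2* brain, differed by 0.48 ± 0.086 and was not called (adjusted p = 0.0849). Each of these 5 genes had all *Rorb h3/h3* libraries above all libraries of C57BL/6J in that comparison. *Rorb* was at 28.9, 30.9, 29.7 and 27.4 CPM in *Rorb h2/h2* brain, below all *Rorb h3/h3* libraries (0.86 ± 0.052, adjusted p = 3.70e-06).

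For 21 of the 29 genes the difference between the alleles was under 0.25 on the log2 scale. *Ndn* was at 159.6, 149.5, 176 and 184 CPM in *Rorb h2/h2* brain and differed by 0.018 ± 0.059 (SE). *Dio2* differed by 0.050 ± 0.065, *Sgsm1* by -0.0054 ± 0.039, *Fmnl1* by 0.0016 ± 0.067 and *Hba-a1* by 0.030 ± 0.068. Over the 10 called chaperones the difference ran from -0.21 to -0.067, with SE up to 0.12 and adjusted p of at least 0.780. Against C57BL/6J the same 10 fell by 0.36 to 0.98. A p that misses the threshold does not show that the alleles are alike. *Rbm3* (0.35 ± 0.097), *Ddn* (0.43 ± 0.080) and *Pla2g4e* (0.34 ± 0.089) were intermediate and not called.

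Spinal cords of the same 7 animals gave a second tissue, which shares the mice but not the libraries. There edgeR called 176 of 17512 genes (1.01%). The count was 34, 89 and 52 without C57BL/6J replicate 1, 2 or 3, and 295, 93 and 112 without *Rorb h3/h3* replicate 1, 2 or 3. Of the 29 genes called in brain, 22 were called in spinal cord, each in the direction it had in brain. *Ide* differed by 0.94 ± 0.041 (SE) in spinal cord, *Ndn* by 0.54 ± 0.047, *Amd-ps3* by 3.60 ± 0.29 and *Btaf1* by 0.71 ± 0.054. *Hspa5* differed by -0.61 ± 0.092, *Sdf2l1* by -0.98 ± 0.16 and *Xbp1* by -0.44 ± 0.087, and 9 of the 10 called chaperones were called there, with *Hyou1* at -0.21 ± 0.059 as the exception. Not called in spinal cord were *Sgsm1*, *Pla2g4e*, *Rbm3*, *Hba-a1*, *Ddn*, *Fmnl1* and *Hyou1*. A test of the difference between the tissues, with the animal as a block, called 0 of 18498 genes (925 at an unadjusted p under 0.05, smallest adjusted p 0.264, edgeR), and 0 without the block. The 5 with the smallest p were *Igfbp4* (0.70 ± 0.11 SE, brain effect minus spinal cord effect), *Hmcn1* (0.63 ± 0.11), *Sgsm1* (-0.35 ± 0.061), *Fosb* (-1.21 ± 0.22) and *Vgf* (-0.41 ± 0.082).

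**Figure D5:**
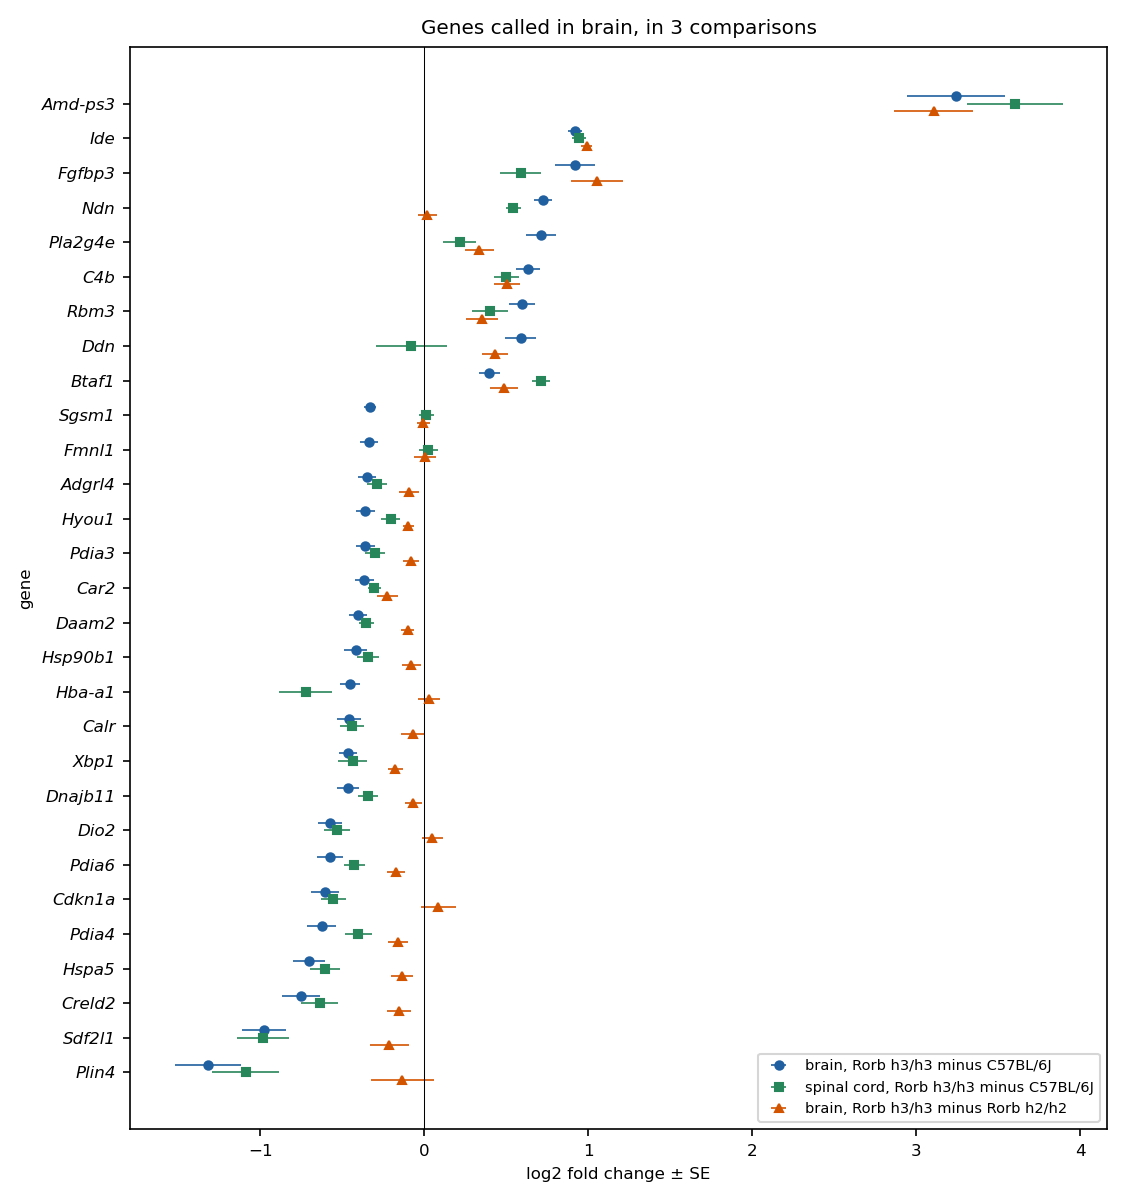
Rows are the 29 genes called in brain and the x axis is the log2 fold change with bars of 1 SE. Blue circles are *Rorb h3/h3* minus C57BL/6J in brain, green squares the same in spinal cord and orange triangles *Rorb h3/h3* minus *Rorb h2/h2* in brain. The triangles of *Amd-ps3*, *Ide*, *Fgfbp3*, *C4b* and *Btaf1* lie near their circles, and those of *Ndn*, *Dio2*, *Sgsm1* and *Fmnl1* lie near 0.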

How the data were processed

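RNA of brain hemisections was measured in 4 *Rorb h3/h3* and 3 C57BL/6J mice, with 4 *Rorb h2/h2* brains and the spinal cords of the same 7 animals for comparison. The authors trimmed reads with Trim Galore, aligned them with STAR to GRCm38 and deposited RSEM expected counts, TPM (scaled for transcript length and depth by RSEM) and gene lengths. The annotation release and the use of strand are not given in the sources used here. The deposited lengths are abundance-weighted means over transcripts, in bases.

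Expected counts, of which 4.72% to 5.49% were not whole, were rounded. The quasi-likelihood test of edgeR 4.0.16 (R 4.3.3), after filterByExpr and TMM scaling, compared 1 group with another in the same tissue, and a gene was called at a Benjamini-Hochberg adjusted p below 0.05. CPM are TMM-scaled within each fit. RSEM gene lengths of genes with at least 5 TPM in each library were tested with limma 3.58.1. Exact 2-sided permutation tests served for single values. Alternatives were DESeq2 1.42.0, its size factors, omission of the low-count filter, a term for sex, a block for the replicate number, 1 fit of 18 brain libraries, and leaving out each library. The block for the replicate number kept only libraries whose number occurs in both groups. The edgeR fits within a tissue, DESeq2 and the limma fit were tested on simulated data, while the fit of the difference between tissues was not. Symbols came from GENCODE mouse release 39 (41407 of 45706 identifiers) and positions and promoter windows from RefSeq GRCm38.p6. Named genes were all called genes, *Rorb* and its neighbours, examples of the 52 gene lists, and the 5 with the smallest p of the other comparisons. The members, lists and named genes were chosen with earlier results of these data known. A planned look at protein ends was not run.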

Additional observations from a re-analysis of the deposited data

Results flagged for a closer look

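Among 69 groups of 4 mutant values checked, *Nptx2*, an activity-induced secreted pentraxin, had 1 *Rorb h3/h3* brain far from the other 3. Its levels were 22.9, 20.4, 20.1 and 20.3 CPM, with replicate 1 apart, and the gap to the nearest library was 0.867 of the whole range, above the critical value of Dixon's test for 4 values. Chance gives such a gap in about 1 of 20 groups. *Nptx2* was not called against C57BL/6J (-0.43 ± 0.093 (SE), adjusted p = 0.139, edgeR), where the controls were at 23.5, 29.3 and 31.3 CPM.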

How the results depend on the processing

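Against C57BL/6J in brain, 195 genes were called with DESeq2 (64 higher and 131 lower), 86 without the low-count filter, 90 in 1 fit of the 5 brain groups, 27 with sex as a covariate and 7 to 29 with 1 library left out. The 29 genes were all called with DESeq2, without the filter and with DESeq2 size factors, and 27 and 23 of them in the single fit and with sex. Same-numbered libraries did not deviate together (r of -0.17, -0.093 and -0.34), so the samples share only a number. Against C57BL/6J, the fit with the replicate block also left out *Rorb h3/h3* replicate 4, as no control has that number. That fit called 2 genes, *Ide* and *Ndn*, and 0 chaperones of the endoplasmic reticulum list. Of that list 10 were called with all libraries and no block, 14 with DESeq2, 12 without the filter, 13 in the single fit and 0 to 9 with 1 library left out. *Rorb h3/h3* against *Rorb h2/h2* gave 44 genes with DESeq2, 27 without the filter, 4 with sex, 18 with the replicate block and 5 to 12 with 1 library left out. In spinal cord the counts were 444, 380 and 73 with DESeq2, without the filter and with sex, and 34 to 295 with 1 library left out. For the difference between tissues they were 111 without the filter and 0 to 4 with 1 animal left out, and for gene length 0 to 1. The difference of *Rorb* ran from -3.71 to 1.26 CPM and that of its gene length from -88.5 to 23.3 bases with 1 library left out. With 1 library left out the log2 fold changes of *Rorb*, *Marchf5* and *Tnks2* ran from -0.10 to 0.034, -0.080 to 0.044 and -0.078 to 0.037, positive without C57BL/6J replicate 3. The causes were not tested.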

Other observations

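Genes of cholesterol synthesis and of the SREBP2 factor that drives it had mostly positive values in *Rorb h3/h3* brain and no call. Of the 22 tested, 20 had a positive log2 fold change (51.8% of all genes), 9 were higher at an unadjusted p under 0.05 (5.24%), 0 were called by edgeR and 2 as higher by DESeq2 (0.362%), and the median was 0.087 against 0.0047 over all genes tested. Against *Rorb h2/h2* brain the median of the list was -0.011.

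*Arc* and *Fos* are immediate early genes, which neuronal activity induces within minutes to hours. *Arc* was at 117, 95.1 and 68.3 CPM in C57BL/6J and 37.7, 24.0, 96.4 and 129 CPM in *Rorb h3/h3* brain, where replicates 1 and 2 were below all controls and replicate 4 above them. *Fos* was at 25.5, 21.9 and 15.1 CPM and 10.1, 4.94, 22.5 and 28.6 CPM, again with replicates 1 and 2 below all controls. Of 30 immediate early genes 0 were called by edgeR and 5 by DESeq2, all lower (0.741% of all genes), 8 had a negative value at an unadjusted p under 0.05 (5.12%), and *Egr3* had -0.53 ± 0.10 (SE) (adjusted p = 0.101). Replicates 1 and 2 were the mutants of 9.6 and 8.3 weeks.

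*Pcsk1*, the gene of a prohormone convertase, was at 31.1, 33.7 and 34.5 CPM in C57BL/6J and 26.3, 23.2, 24.0 and 26.7 CPM in *Rorb h3/h3* brain (-0.40 ± 0.068 (SE), adjusted p = 0.0524, edgeR), and *Vgf*, a secreted peptide precursor, at 117, 131 and 126 CPM and 104, 109, 103 and 103 CPM (-0.26 ± 0.046 (SE), adjusted p = 0.0704). For both genes the mutants were all below the controls. In spinal cord the differences were -0.036 ± 0.053 and 0.15 ± 0.073 (SE), and between *Rorb h3/h3* and *Rorb h2/h2* brain 0.057 ± 0.077 and -0.043 ± 0.041. Both genes were named after their values were seen.

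*Prl*, the pituitary hormone prolactin, was at 2.00, 12.6 and 0.147 CPM in the controls and 0, 0.0248, 0.622 and 0.522 CPM in the mutants. It was not called (adjusted p = 0.253, edgeR), and the controls alone spanned from 0.147 to 12.6 CPM.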
